A study of Mus musculus with 9 samples.

Results

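Megakaryocytes are the marrow cells that shed platelets, and the genes described here encode proteins of those cells. They are 34 genes chosen by name from the 43629 genes of the deposited table. They cover the receptors, stored proteins, secretion machinery and signalling proteins of platelets, and each matched 1 gene identifier. Their levels were measured by RNA sequencing of bone marrow cells of C57BL/6 mice treated with pIpC, a synthetic double-stranded RNA. The cells were enriched with antibody beads for c-KIT, the stem cell factor receptor carried by blood progenitors and mast cells. The 3 genotypes were Cbfb+/MYH11 (MYH11 below), Cbfb+/mDE (mDE below) and wild type (WT), with 3 libraries each. The MYH11 allele encodes CBFβ-SMMHC, the fusion protein of acute myeloid leukaemia with an inverted chromosome 16, and the study concerns the C-terminal multimerization domain of that protein, which the mDE allele alters. Both knock-in genotypes are heterozygous, and all 3 groups, WT included, received pIpC. Age, sex, the Cre driver and the number of mice behind each library are not given in the sources used here, so the p-values speak of the spread among these libraries and no more.

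Platelets reach a damaged vessel wall with the GPIb-IX-V complex, which binds von Willebrand factor, and stick to each other with the integrin αIIbβ3, which binds fibrinogen. Between those steps, receptors for collagen, thrombin, ADP and thromboxane signal inside the cell and release granules loaded with adhesive and clotting proteins. Megakaryocytes make this machinery late in their maturation under GATA1, FLI1 and RUNX1, and CBFβ is the subunit that helps RUNX1 hold DNA.

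Libraries held 39300366 to 50073097 reads, and a gene with no read could still have had up to 3 reads, or 2.56 to 3.52 reads after normalisation, which covers counting error only. All values below are normalised reads, the deposited counts divided by 1 scaling factor per library. Megakaryocyte genes were present in all 9 libraries, with Pf4, Itga2b, Gp1ba, Gp9 and Vwf above 0 in each. Of the 34 genes, 17 were listed as also known from other blood or vessel cells. These include 9 of the 10 with the highest level per kilobase of exon in WT. The list is not complete, since Mrvi1, whose protein also acts in smooth muscle, is not on it. The 34 genes together took 0.190% to 0.225% of reads in MYH11, 0.166% to 0.196% in mDE and 0.156% to 0.178% in WT. Their summed normalised reads overlapped, at 72760 to 84830 in MYH11, 73849 to 88350 in mDE and 67345 to 81969 in WT. The 17 listed genes alone took 0.155% to 0.164% of reads in MYH11, 0.160% to 0.186% in mDE and 0.146% to 0.170% in WT. Myh11, which is part of the fusion, stood at 176 to 219 normalised reads in MYH11, 28.7 to 43.8 in mDE and 4.70 to 8.64 in WT, and Kit at 3226 to 3868 in MYH11, 6987 to 7622 in mDE and 7354 to 7797 in WT. In MYH11 the 14 late neutrophil genes, all called lower against WT with a median log2 fold change of -3.35, took 0.994%, 2.02% and 0.447% of reads in replicates 1, 2 and 3, against 11.7% to 14.7% in mDE and 10.4% to 12.3% in WT. Of all tested genes 27.8% were called lower there.

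The 250 bases before the RefSeq transcription start were read for the GPIb-IX-V genes, whose members parted in the data, and for Itga2b and Pf4, a rising and a falling textbook marker. Sequences are from RefSeq on GRCm38.p6 and run 5′ to 3′ on the strand of the gene. Capitals mark 3 kinds of motif of megakaryocyte factors, searched on both strands. The motif of GATA factors was taken as AGATAA, or with T as the first letter. That of ETS factors was AGGAAG. That of RUNX factors was TGTGGT, or with C as the third letter. Where the motif is on the opposite strand, the capitals are its reverse complement.
Gp1ba, chr11:70638872-70639121, plus strand: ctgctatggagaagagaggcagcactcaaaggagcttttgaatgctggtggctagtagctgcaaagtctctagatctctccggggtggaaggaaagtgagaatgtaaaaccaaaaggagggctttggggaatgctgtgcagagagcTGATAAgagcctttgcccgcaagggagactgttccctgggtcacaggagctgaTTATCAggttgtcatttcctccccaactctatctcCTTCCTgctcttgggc
Gp5, chr16:30310782-30311031, minus strand: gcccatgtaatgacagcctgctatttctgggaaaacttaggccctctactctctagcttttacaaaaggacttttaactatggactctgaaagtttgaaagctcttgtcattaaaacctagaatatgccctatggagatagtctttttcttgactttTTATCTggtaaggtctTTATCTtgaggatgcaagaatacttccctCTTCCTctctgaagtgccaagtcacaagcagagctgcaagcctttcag
Gp9, chr6:87777820-87778069, plus strand: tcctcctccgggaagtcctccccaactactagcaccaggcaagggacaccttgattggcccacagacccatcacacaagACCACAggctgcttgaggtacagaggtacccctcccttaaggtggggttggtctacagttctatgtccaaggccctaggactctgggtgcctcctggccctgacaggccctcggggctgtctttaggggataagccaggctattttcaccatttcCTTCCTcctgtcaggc
Gp1bb, chr16:18622404-18622653, minus strand: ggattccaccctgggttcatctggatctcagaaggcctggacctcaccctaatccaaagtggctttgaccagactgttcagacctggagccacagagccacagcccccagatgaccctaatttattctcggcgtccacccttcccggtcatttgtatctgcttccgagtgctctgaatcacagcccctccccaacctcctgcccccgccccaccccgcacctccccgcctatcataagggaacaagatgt
Itga2b, chr11:102469884-102470133, minus strand: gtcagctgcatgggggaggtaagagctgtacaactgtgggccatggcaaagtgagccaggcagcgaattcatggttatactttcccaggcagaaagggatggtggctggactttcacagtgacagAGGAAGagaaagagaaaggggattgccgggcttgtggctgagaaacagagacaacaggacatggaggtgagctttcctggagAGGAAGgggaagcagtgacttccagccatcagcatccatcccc
Pf4, chr5:90772185-90772434, plus strand: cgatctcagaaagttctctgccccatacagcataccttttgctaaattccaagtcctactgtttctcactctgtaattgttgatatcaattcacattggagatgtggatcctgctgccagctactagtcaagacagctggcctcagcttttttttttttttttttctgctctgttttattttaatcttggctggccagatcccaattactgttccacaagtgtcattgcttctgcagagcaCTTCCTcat

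The windows of Gp1ba and Gp5 each held 2 GATA motifs and 1 ETS motif. The window of Gp9 held 1 ETS and 1 RUNX motif, and that of Gp1bb held none of the 3 in the forms searched. Forms of the GATA motif that end in G were not searched. The Gp1bb window holds TGATAG, and those of Gp1ba and Gp5 hold AGATAG, counting either strand. Itga2b had 2 ETS motifs and Pf4 had 1. The RefSeq start of Itga2b is also a GENCODE transcript start, but another GENCODE transcript begins further upstream, so 239 bases of that window and both of its motifs lie inside the GENCODE gene. The other 5 windows lie outside their GENCODE genes, and end within 2 bases of a transcript start. RefSeq windows were found for 29 of the 34 genes, 32 windows in all because some genes have more than 1 start. Of these 32, 9 held a GATA motif, 17 an ETS motif and 4 a RUNX motif. Among all 32851 windows of the same length the shares were 16.6% for GATA, 29.5% for ETS and 18.6% for RUNX. A GATA motif stood in 6 of 14 windows of genes higher in MYH11 than in WT, in 1 of 10 windows of genes lower there and in 2 of 8 windows of the others. For ETS the counts were 8 of 14, 7 of 10 and 2 of 8, and for RUNX 1 of 14, 2 of 10 and 1 of 8. A match describes the letters in the window and no more.

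In MYH11 the platelet genes moved in both directions, and members of the same receptor or granule parted from each other. Of 33 members with enough reads to test, 14 rose and 12 fell against WT at a limma adjusted p under 0.05, and 7 did not pass. That is 78.8% of the tested members, where 59.8% of all 15948 tested genes passed in either direction, 32.0% higher and 27.8% lower. Of those called, 11 rose and 10 fell by at least 2-fold. All 3 MYH11 libraries lay above all 3 WT libraries in 15 members and below them in 13, together 84.8% of those tested, against 36.4% above, 32.3% below and 68.7% together over all tested genes. The median log2 fold change of the members was 0.14, beside 0.02 over all tested genes. In a bulk library, fewer cells of a type and less RNA per cell cannot be told apart, for any gene described here. Without MYH11 replicate 2, the MYH11 library with the largest late neutrophil share, 14 rose and 11 fell.

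**Figure D1:**
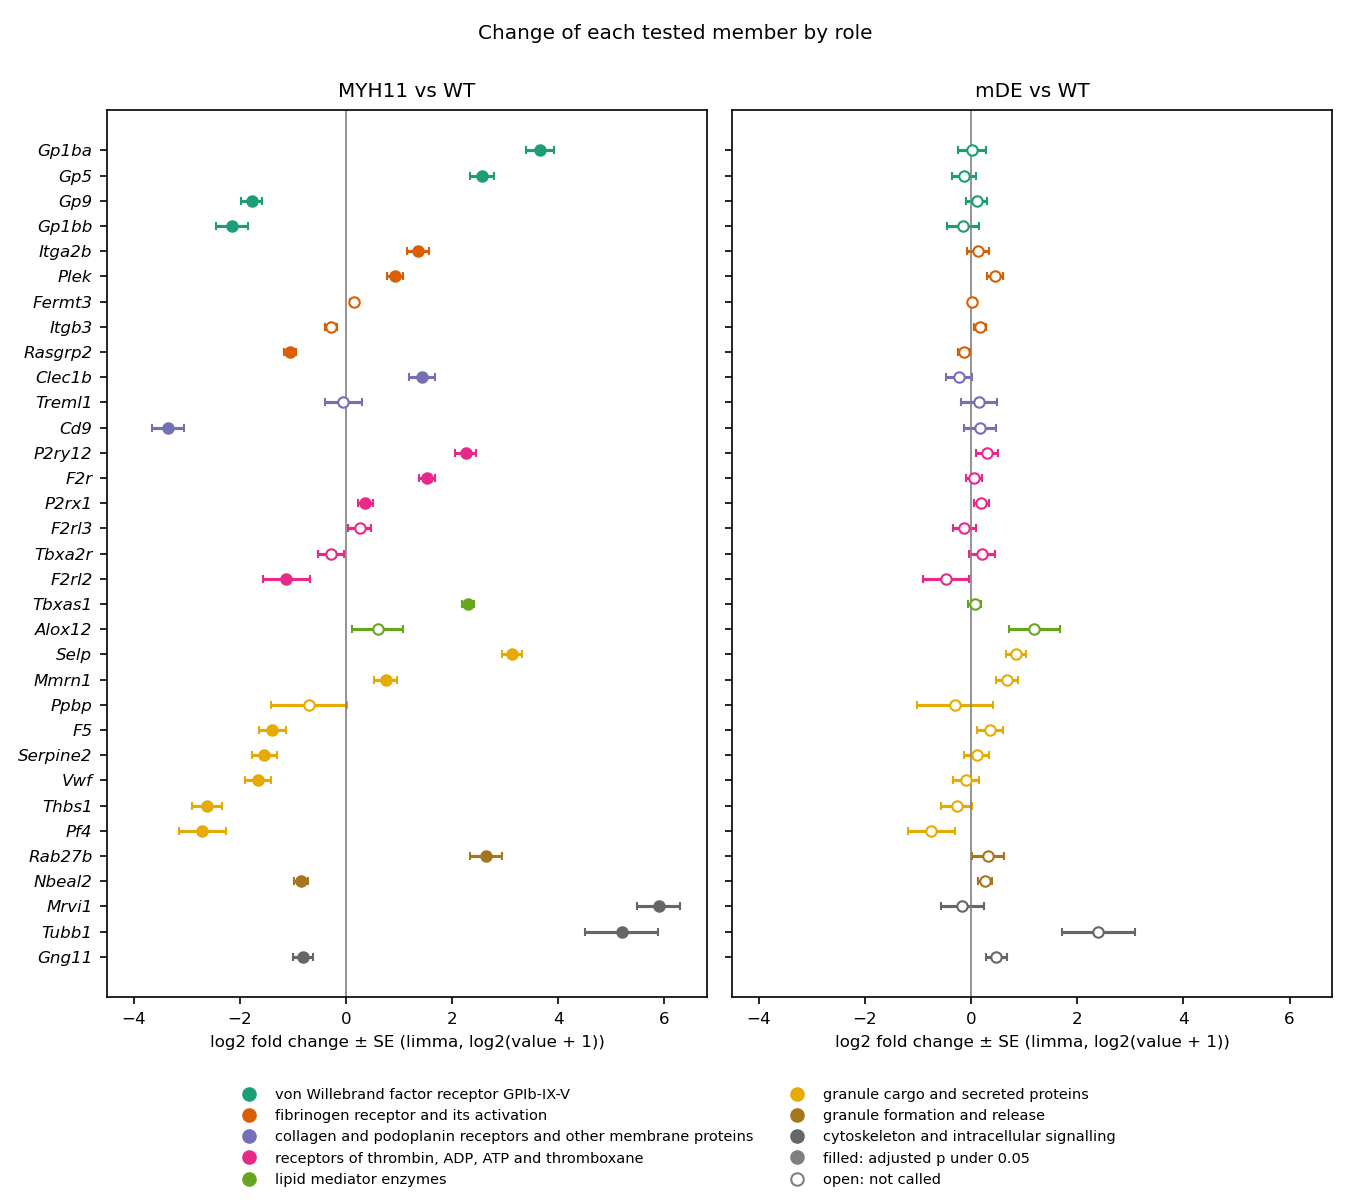
Log2 fold change (points) with its standard error (bars) for the 33 tested genes, grouped by role, MYH11 against WT on the left and mDE against WT on the right; filled points passed a limma adjusted p under 0.05. On the left 14 filled points lie above 0 and 12 below it, and on the right none is filled.

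The GPIb-IX-V complex split into a rising and a falling pair. Gp1ba (chr11:70639122-70642036) encodes the chain that binds von Willebrand factor. It had 2296, 1521 and 2688 normalised reads in MYH11, 121, 246 and 164 in mDE, and 167, 159 and 176 in WT. Every MYH11 library was far above the other 6, and the mDE and WT libraries overlapped. Gp1ba rose 12.9-fold in MYH11 against WT (log2 fold change 3.65 ± 0.26 SE, limma adjusted p = 4.08e-06). Gp5 (chr16:30307685-30310779), the thrombin-cleaved subunit, had 2420.2, 1352 and 2229 in MYH11, 262, 362 and 283 in mDE, and 397, 319 and 279.5 in WT. Again the MYH11 libraries stood apart and the other groups overlapped. Gp5 rose 6.03-fold (2.56 ± 0.23, limma adjusted p = 1.34e-05).

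Gp9 (chr6:87778072-87779768) and Gp1bb (chr16:18620317-18622403) encode the small chains that carry the complex to the cell surface. Gp9 had 61.5, 58.0 and 41.6 normalised reads in MYH11, 187, 213 and 195 in mDE, and 210.4, 146 and 202 in WT. All MYH11 libraries were below both other groups. Gp9 fell 3.47-fold (log2 fold change -1.78 ± 0.20 SE, limma adjusted p = 5.31e-05). Gp1bb had 25.3, 17.9 and 13.3 in MYH11, 51.8, 90.8 and 90.8 in mDE, and 102, 79.7 and 72.8 in WT. It fell 4.51-fold (-2.15 ± 0.30, limma adjusted p = 0.000234), again with no overlap. The Gp1bb value is uncertain because 91.1% of its exon bases also belong to Sept5 on the same strand, and Sept5 averaged 895 in MYH11, 9797 in mDE and 9117 in WT. Per kilobase of exon, Gp5 and Gp1ba averaged 911 and 798 in MYH11, where Gp9 and Gp1bb averaged 60.9 and 9.02. In WT the order per kilobase was another, with Gp9 at 211, Gp5 at 151, Gp1ba at 61.6 and Gp1bb at 40.7.

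**Figure D2:**
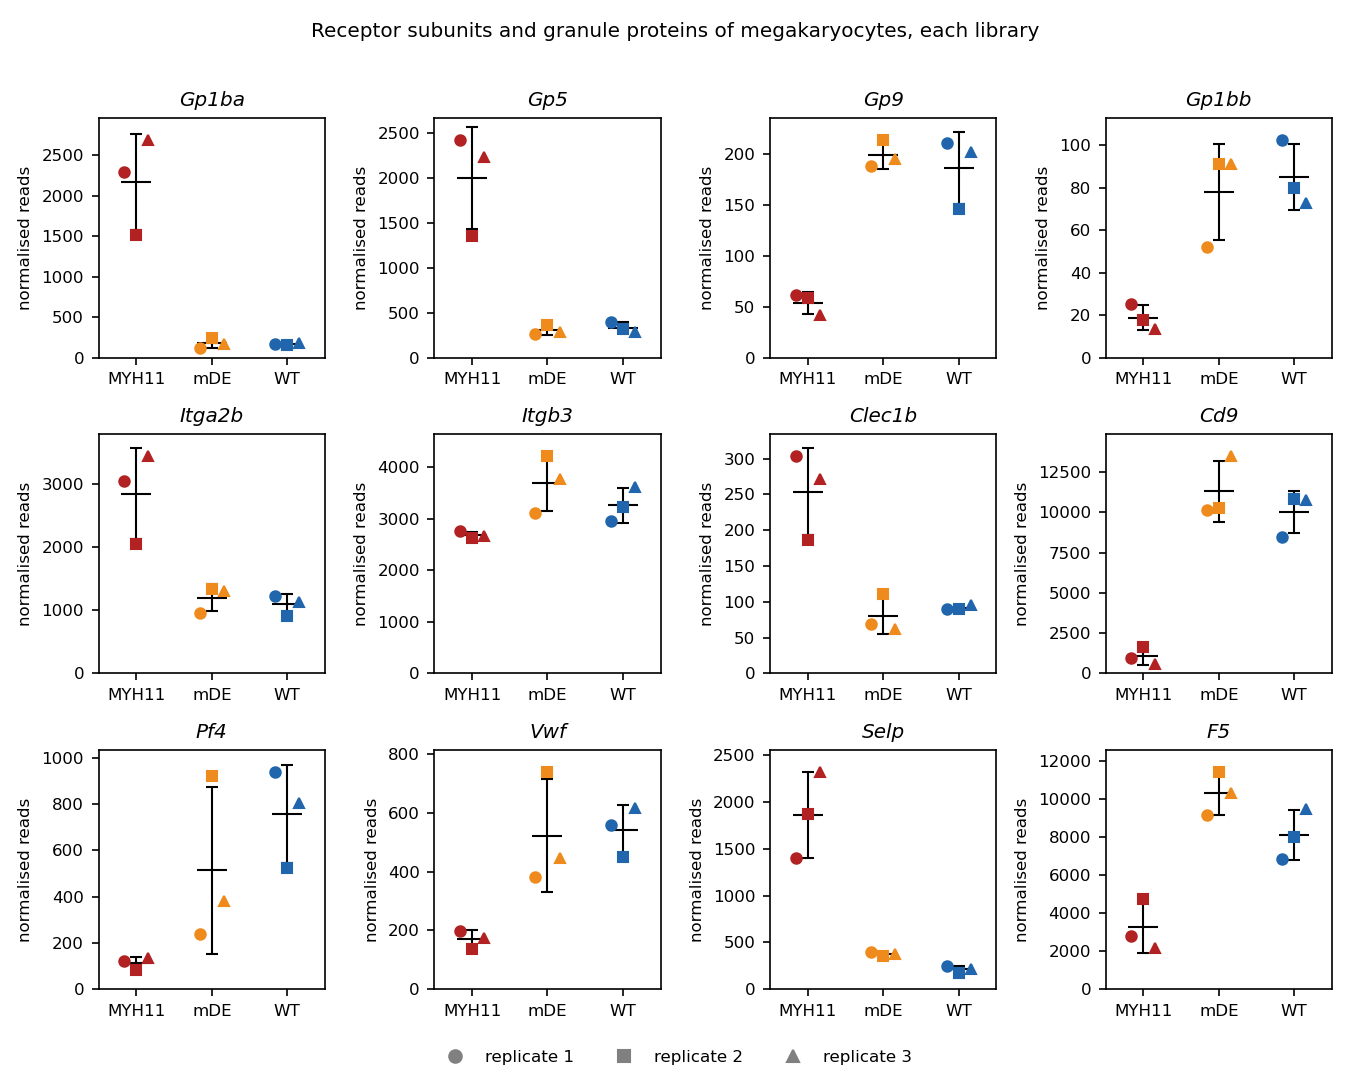
Normalised reads (vertical axis) of 12 platelet genes in each library of MYH11, mDE and WT; points are libraries and bars give the mean ± SD of 3. Gp1ba, Gp5, Itga2b, Clec1b and Selp are higher in MYH11, Gp9, Gp1bb, Cd9, Pf4, Vwf and F5 are lower there, and the 3 MYH11 points of Itgb3 lie just below those of both other genotypes.

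For the integrin αIIbβ3, the gene of 1 chain rose against WT and that of the other did not pass. Itga2b (chr11:102453297-102470122), the αIIb chain, also known as CD41, had 3042, 2049 and 3447 normalised reads in MYH11, 951, 1341 and 1302 in mDE, and 1229, 914 and 1135 in WT. The MYH11 libraries lay above all others, and mDE and WT overlapped. Itga2b rose 2.60-fold against WT (log2 fold change 1.36 ± 0.21 SE, limma adjusted p = 0.000365). Itgb3 (chr11:104608000-104670476), the β3 chain, had 2756, 2615 and 2656 in MYH11, 3102, 4212 and 3772 in mDE, and 2943, 3216 and 3618 in WT. The 3 lowest of the 9 libraries were those of MYH11, but Itgb3 did not pass against WT (-0.28 ± 0.11, limma adjusted p = 0.0522), where the alternatives gave an adjusted p of 0.0172 to 0.177. It did pass against mDE, where it was 1.38-fold lower in MYH11 (limma adjusted p = 0.00630).

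Among the proteins that switch the integrin on, Plek, the protein kinase C substrate pleckstrin, rose 1.90-fold, at 14322 ± 2415 in MYH11 and 7536 ± 1036 in WT (SD, n = 3 each, limma adjusted p = 0.000558). Rasgrp2 (chr19:6399340-6415216), the calcium-driven activator of RAP1, had 3562, 4880.3 and 3721 in MYH11, 7064, 7869 and 7858 in mDE, and 7638, 8936 and 8524 in WT. Each MYH11 library was below the others, and Rasgrp2 fell 2.06-fold (log2 fold change -1.06 ± 0.12 SE, limma adjusted p = 4.86e-05). Fermt3, the integrin-binding protein kindlin-3, stood at 18167 ± 1040.5 in MYH11 and 16429 ± 552 in WT and did not pass (limma adjusted p = 0.0685). Plek was the most abundant of the 34 genes per kilobase in MYH11, at 3193, and Fermt3 was next to the top in every genotype, at 3141 in MYH11, 2892 in mDE and 2840 in WT.

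Of the collagen receptor, the podoplanin receptor and other membrane proteins, 1 rose, 1 fell, 1 did not pass and 1 was below the filter on low reads. Beside this, 32.0% of all tested genes rose and 27.8% fell. Clec1b (chr6:129397297-129409335) encodes CLEC-2, the podoplanin receptor. It had 304, 187 and 271 normalised reads in MYH11, 69.4, 111 and 62.4 in mDE, and 89.7, 90.2 and 95.1 in WT. The 3 highest libraries were those of MYH11, and Clec1b rose 2.77-fold (log2 fold change 1.43 ± 0.24 SE, limma adjusted p = 0.000792). It shares 184 exon bases, 3.61% of its own, with Clec9a on the same strand. Cd9 (chr6:125460266-125494791), a tetraspanin that platelets carry in large amounts and that many other cells carry too, had 939.9, 1628 and 599.9 in MYH11, 10160.1, 10257 and 13504 in mDE, and 8495, 10809.9 and 10752 in WT. Every MYH11 library lay far below the rest. Cd9 fell 9.49-fold (-3.36 ± 0.30, limma adjusted p = 1.43e-05), the largest fall among the 34 genes by log2 fold change. Among the 34 genes per kilobase it had rank 9 in MYH11, at 517, and rank 1 in mDE, at 5532, and in WT, at 4902.

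Treml1, an α-granule membrane receptor exposed on activated platelets, averaged 87.4 ± 28.6 in MYH11, 102 ± 43.5 in mDE and 88.2 ± 18.5 in WT (SD, n = 3 each) and did not pass against WT (limma adjusted p = 0.916). Gp6 encodes glycoprotein VI, the collagen receptor, and did not pass the filter on low reads. It had 0 reads in the 3 MYH11 libraries together, 17 in mDE and 15 in WT. Taking 3 reads per library as the most a count of 0 allows, Gp6 was at least 1.95-fold lower in MYH11 than in WT. Without the filter limma called it lower in MYH11 against WT and against mDE (adjusted p = 0.00367 and 0.00676), with a fitted size that depends on the pseudocount.

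Among the genes of 8 granule and secreted proteins, 5 fell, 2 rose and 1 did not pass, with a median log2 fold change of -1.46. All tested genes had a median of 0.02, with 27.8% lower and 32.0% higher. Pf4 (chr5:90772435-90773383), the chemokine platelet factor 4 and a defining megakaryocyte transcript, had 124, 82.7 and 135 normalised reads in MYH11, 237, 922 and 383 in mDE, and 939.9, 524 and 803 in WT. The MYH11 libraries did not overlap WT or mDE, and the mDE values ran from below the lowest WT value to just under the highest. Pf4 fell 6.65-fold against WT (log2 fold change -2.71 ± 0.44 SE, limma adjusted p = 0.000592). Vwf (chr6:125546774-125686679), von Willebrand factor itself, had 199.7, 137 and 175 in MYH11, 380.3, 740.2 and 448 in mDE, and 558, 450.1 and 617 in WT. Again the 3 lowest libraries were those of MYH11. Vwf fell 3.17-fold (-1.66 ± 0.25, limma adjusted p = 0.000313), while the gene of its receptor chain Gp1ba rose.

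The other members of this group that fell are also known from other blood or vessel cells. Thbs1 (chr2:118111876-118127133), thrombospondin 1, had 847, 1314 and 729 in MYH11, 4138, 5830.0 and 4414 in mDE, and 3762, 6705 and 7458 in WT. It fell 6.20-fold (log2 fold change -2.62 ± 0.28 SE, limma adjusted p = 4.67e-05), with no overlap. F5 (chr1:164151838-164220277), coagulation factor V, had 2803, 4774 and 2182 in MYH11, 9183, 11458 and 10343 in mDE, and 6861, 7996 and 9488 in WT. It fell 2.49-fold (-1.38 ± 0.25, limma adjusted p = 0.00102), and MYH11 replicate 2 lay closest to the WT values. Serpine2 (chr1:79794197-79861180), the thrombin inhibitor protease nexin 1, had 446, 600.0 and 419 in MYH11, 1053, 1495 and 2173 in mDE, and 1274, 1461 and 1468 in WT. It fell 2.87-fold (-1.53 ± 0.23, limma adjusted p = 0.000392), with every MYH11 library below the rest. Ppbp, the chemokine precursor of CXCL7, ranged from 51.1 to 85.0 in MYH11, 30.6 to 299 in mDE and 56.6 to 147 in WT, and did not pass (limma adjusted p = 0.431).

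Selp (chr1:164115264-164150026), P-selectin, the α-granule adhesion receptor for leukocytes, had 1403, 1867 and 2321 normalised reads in MYH11, 397, 353 and 374 in mDE, and 246, 169.9 and 216 in WT. The 3 genotypes did not overlap, with MYH11 highest and WT lowest. Selp rose 8.84-fold in MYH11 against WT (3.12 ± 0.19 SE on the log2 scale, limma adjusted p = 1.42e-06) and 4.97-fold against mDE (limma adjusted p = 9.54e-06). Mmrn1, the factor V binding protein multimerin 1, rose 1.67-fold against WT, at 448 ± 71.5 in MYH11 and 268 ± 54.0 in WT (SD, n = 3 each, limma adjusted p = 0.0119). F5 thus fell while the gene of its granule partner multimerin 1 rose.

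The genes for granule formation and release also parted. Rab27b (chr18:69979131-70141605), a small GTPase of granule secretion, had 1368, 809.7 and 1516 in MYH11, 161, 291 and 282 in mDE, and 246, 151 and 182 in WT. The MYH11 libraries were far above the others, and Rab27b rose 6.38-fold (log2 fold change 2.65 ± 0.30 SE, limma adjusted p = 6.25e-05). Nbeal2, which α-granules need to form, fell 1.81-fold, at 4196 ± 355 in MYH11 and 7611 ± 1449.8 in WT (SD, n = 3 each, limma adjusted p = 0.000537).

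Receptors for soluble agonists rose in 3 cases and fell in 1, of 6 genes tested, where 32.0% of all tested genes rose and 27.8% fell. F2r (chr13:95601803-95618487), the thrombin receptor PAR1, had 2064, 1335 and 1775 normalised reads in MYH11, 626, 668 and 552 in mDE, and 673, 537 and 565 in WT. The MYH11 libraries were the 3 highest, and F2r rose 2.91-fold (log2 fold change 1.53 ± 0.16 SE, limma adjusted p = 3.29e-05). Mouse platelets are known to sense thrombin through PAR3 and PAR4 and not through PAR1. F2rl2 (chr13:95696853-95702739), which encodes PAR3, had 91.3, 59.7 and 71.8 in MYH11, 90.4, 255 and 65.7 in mDE, and 180.4, 124 and 184 in WT. It was 2.19-fold lower in MYH11 than in WT at the edge of the threshold (-1.12 ± 0.44, limma adjusted p = 0.04996), a call that 12 of 17 alternatives lost, with an adjusted p up to 0.128. F2rl3, which encodes PAR4, averaged 149 ± 23.0 in MYH11, 116 ± 31.9 in mDE and 124 ± 9.98 in WT (SD, n = 3 each) and did not pass against WT (limma adjusted p = 0.333).

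P2ry12 (chr3:59216272-59262871), the ADP receptor blocked by clopidogrel, had 316, 261 and 282 in MYH11, 54.0, 83.6 and 85.4 in mDE, and 57.9, 53.7 and 65.8 in WT. The MYH11 libraries stood apart from both other groups. P2ry12 rose 4.84-fold (log2 fold change 2.26 ± 0.20 SE, limma adjusted p = 1.31e-05). It lies against Med12l on the opposite strand, sharing 9 exon bases, and Med12l averaged 660 in MYH11, 138 in mDE and 89.2 in WT. Whether the counting used strand is not given in the sources used here. P2rx1, the ATP-gated channel, was 1.28-fold higher, at 1307 ± 0.352 in MYH11 and 1018 ± 119.7 in WT (SD, n = 3 each, limma adjusted p = 0.0490), a call that 11 of 18 alternatives lost, with an adjusted p up to 0.164. Tbxa2r, the thromboxane receptor, averaged 49.7 ± 8.65 in MYH11 and 61.2 ± 15.8 in WT and did not pass (limma adjusted p = 0.355).

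The enzymes of lipid mediators differed. Tbxas1 (chr6:38875404-39084585), thromboxane synthase, had 5178, 4386 and 4952 in MYH11, 848, 1185 and 1074 in mDE, and 917, 1004 and 1014 in WT. The MYH11 libraries stood far above the rest, and Tbxas1 rose 4.95-fold with the smallest adjusted p of the 34 genes (log2 fold change 2.30 ± 0.12 SE, limma adjusted p = 6.42e-07). Macrophages also make this enzyme. Of 12 monocyte and macrophage genes 10 were higher and 1 lower against WT, beside 32.0% and 27.8% of all tested genes. Together these genes took 0.508% to 0.580% of reads in MYH11, 0.145% to 0.167% in mDE and 0.121% to 0.127% in WT. The part of those cells in the Tbxas1 result was not tested. Alox12, the platelet 12-lipoxygenase, averaged 25.5 ± 10.9 in MYH11, 41.4 ± 28.0 in mDE and 15.7 ± 4.39 in WT (SD, n = 3 each) and did not pass against WT (limma adjusted p = 0.307).

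The largest rises among the 34 genes were those of Mrvi1 and Tubb1. Mrvi1 (chr7:110868266-110982461) encodes IRAG, the protein through which cyclic GMP restrains calcium release in platelets and smooth muscle. It had 9628, 7157 and 12805 normalised reads in MYH11, 86.0, 283 and 119 in mDE, and 212, 122 and 159.7 in WT. No mDE or WT library came near the MYH11 values, and mDE and WT overlapped. Mrvi1 rose 59.9-fold (log2 fold change 5.89 ± 0.41 SE, limma adjusted p = 3.11e-06). Per kilobase it stood at 1445 in MYH11, below only Plek and Fermt3 among the 34 genes, and at 23.9 in mDE and 24.1 in WT, near the bottom of the order.

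Tubb1 (chr2:174450695-174457882), the β1 tubulin of the platelet microtubule ring, had 436, 323 and 472 in MYH11, 140.0, 91.7 and 14.2 in mDE, and 12.5, 11.5 and 7.05 in WT. The MYH11 libraries were highest, the WT libraries lowest, and the mDE libraries between them without overlap, although mDE replicate 3 lay close to WT. Tubb1 rose 39.6-fold in MYH11 against WT (5.19 ± 0.69 SE on the log2 scale, limma adjusted p = 0.000165) and by 2.80 on the log2 scale against mDE (limma adjusted p = 0.00694). That difference from mDE was 1.83 on the log2 scale without mDE replicate 3 and 3.43 without mDE replicate 1, and the adjusted p stayed at or under 0.0235 in every alternative run. Gng11, a G protein γ subunit, fell by 0.81 on the log2 scale, at 66.7 ± 4.65 in MYH11 and 119.8 ± 29.6 in WT (SD, n = 3 each, limma adjusted p = 0.00531).

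**Figure D3:**
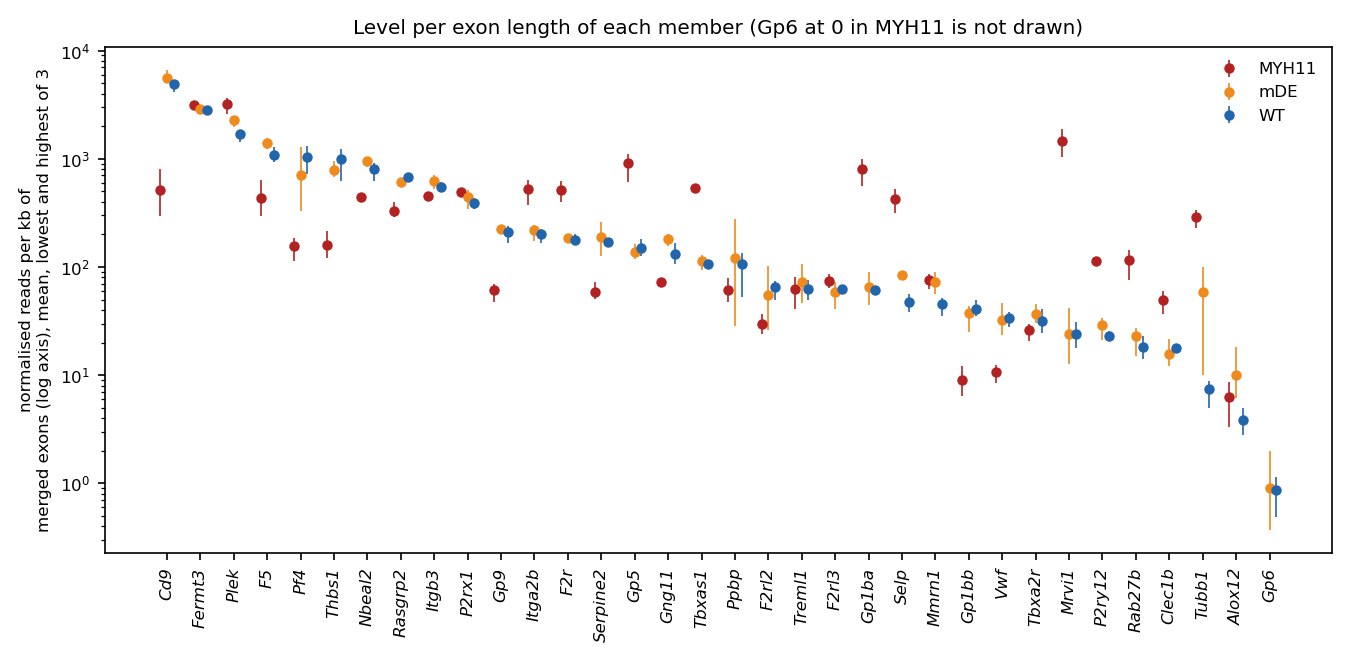
Normalised reads per kilobase of merged exons (log axis) of the 34 genes in MYH11, mDE and WT, ordered by the WT level; points are means of 3 libraries and bars run from the lowest to the highest library. Gp6 is at 0 in MYH11 and has no point there. In MYH11 Plek leads at 3193 and Mrvi1 stands at 1445, while Cd9 leads in mDE at 5532 and in WT at 4902.

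Several of these genes are neighbours on the chromosome, and neighbours did not always move alike. Selp and F5 lie 1.811 kb apart on chromosome 1 on the same strand, and Selp rose while F5 fell. F2r and F2rl2 lie 78.4 kb apart on chromosome 13, and F2r rose while F2rl2 was lower. That call of F2rl2 was at the edge of the threshold (limma adjusted p = 0.04996) and was lost in most alternatives. On chromosome 6, Cd9 and Vwf lie 52.0 kb apart and both fell. The chemokine genes Ppbp and Pf4 lie 2.371 kb apart on chromosome 5, where Pf4 fell and Ppbp did not pass.

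In mDE none of the 33 tested genes passed against WT at a limma adjusted p under 0.05, where 1.24% of all tested genes passed, 0.821% higher and 0.420% lower. At an unadjusted p under 0.05 limma gave 6 of 33, against 19.8% of all tested genes. edgeR's quasi-likelihood test and limma-voom called none, and DESeq2 called 4 higher, Tubb1, Selp, Plek and Mmrn1. Log2 fold changes ran from -0.75 (Pf4) to 2.396 (Tubb1), with a median of 0.11 beside 0.01 over all tested genes. The libraries did not overlap in 5 of 33 genes, 15.2%, against 26.1% of all tested genes, 13.9% with mDE above and 12.1% with mDE below. In all 5 the mDE libraries lay above WT: Alox12, Mmrn1, Plek, Selp and Tubb1.

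The smallest adjusted p was that of Selp, which stood 1.78-fold above WT (log2 fold change 0.84 ± 0.19 SE, limma adjusted p = 0.0672). Tubb1 was 7.91-fold above WT in the mean of the mDE libraries (2.396 ± 0.69, limma adjusted p = 0.118). Without mDE replicate 3, its lowest mDE library, the log2 fold change of Tubb1 was 3.37 (limma adjusted p = 0.00412). Mmrn1 averaged 429.7 ± 97.2 in mDE and 268 ± 54.0 in WT (SD, n = 3 each, limma adjusted p = 0.137). Plek averaged 10260.5 ± 1295 in mDE and 7536 ± 1036 in WT (limma adjusted p = 0.156). For the GPIb-IX-V genes the mDE values overlapped those of WT, with log2 fold changes of 0.02 ± 0.26 for Gp1ba, -0.13 ± 0.23 for Gp5, 0.11 ± 0.20 for Gp9 and -0.16 ± 0.30 for Gp1bb (SE).

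The mDE libraries differed among themselves in these genes. Replicate 2 was the highest of the 3 in 22 of 33 tested members, against 29.2% of all tested genes. It exceeded the mean of replicates 1 and 3 by more than 1.5 times in 9 of 33 tested members, against 5.38% of all tested genes. These were Ppbp (6.10 times), F2rl2 (3.26), Pf4 (2.97), Alox12 (2.92), Mrvi1 (2.76), Treml1 (1.91), Vwf (1.79), Gp1ba (1.73) and Clec1b (1.68). Gp6, which was below the filter, stood at 11.7 in replicate 2 and at 2.20 and 2.19 in replicates 1 and 3. Among these genes are megakaryocyte chemokines, the collagen receptor Gp6 and von Willebrand factor with the Gp1ba chain of its receptor. Others not listed for other cells stayed under 1.5 times, such as Gp9 (1.12), Itga2b and Tubb1 (1.19 each), Gp1bb (1.27) and Gp5 (1.32). Cd9 (0.867 times) and Selp (0.914 times) were not higher in that library. Without mDE replicate 2 there were still no calls against WT, and Pf4 had a log2 fold change of -1.28 (limma adjusted p = 0.127), Ppbp -1.19 (0.281), F2rl2 -1.05 (0.136) and Mrvi1 -0.66 (0.306).

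**Figure D4:**
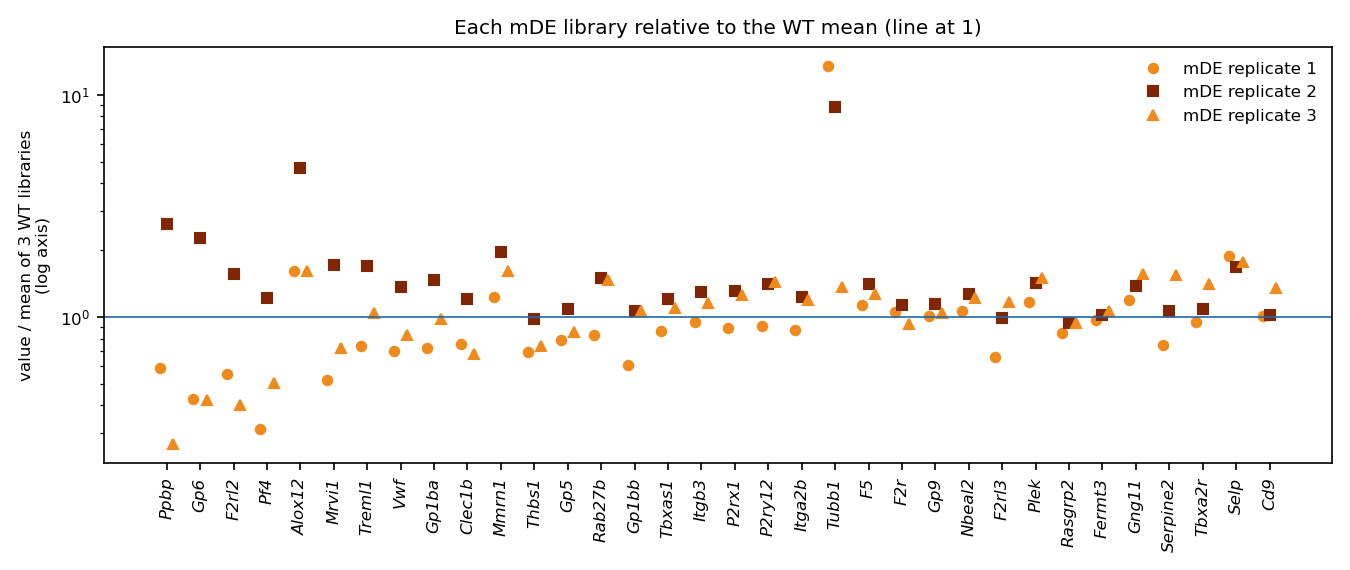
Value of each gene in each of the 3 mDE libraries divided by the WT mean (log axis). Genes are ordered by the ratio of replicate 2 to the mean of replicates 1 and 3. Replicate 2 was the highest of the 3 in 22 of 33 tested genes, with Ppbp, Gp6 and Alox12 well above the other 2 libraries; Tubb1 is far above WT in replicates 1 and 2 and less so in replicate 3.

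MYH11 was also compared with mDE, which differ in the fusion allele. Of 33 tested genes 12 rose and 12 fell in MYH11, where 55.6% of all tested genes passed, 29.6% higher and 26.0% lower. The libraries did not overlap in 12 members with MYH11 above and 13 with MYH11 below, against 33.2% and 29.0% of all tested genes, 62.2% together. The median log2 fold change was -0.20, beside 0.03 over all tested genes. This comparison shares its MYH11 libraries with the one against WT, so the 2 are not independent. Gp1ba stood 12.2-fold higher in MYH11 than in mDE (limma adjusted p = 4.94e-06), Gp5 6.61-fold (1.15e-05) and Mrvi1 60.6-fold (3.24e-06). Cd9 stood 10.7-fold lower (limma adjusted p = 1.22e-05), Gp9 3.70-fold (4.08e-05), Pf4 4.52-fold (0.00424) and Vwf 3.06-fold (0.000503). Mmrn1, P2rx1 and F2rl2, which were called against WT, had log2 fold changes of 0.07 ± 0.21, 0.18 ± 0.14 and -0.64 ± 0.44 (SE) against mDE and did not pass (limma adjusted p = 0.791, 0.319 and 0.242). For these 3 genes the MYH11 and mDE libraries overlapped. Plek, 1.40-fold higher in MYH11 (limma adjusted p = 0.0222), lost the call without MYH11 replicate 1, MYH11 replicate 3 or mDE replicate 1, with an adjusted p up to 0.0805.

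The MYH11 libraries had an order of their own. Replicate 2, with 2.02% late neutrophil reads, was the lowest of the 3 in 11 of the 14 genes that rose, where it was lowest in 52.2% of all genes called higher. It was the highest in 6 of the 12 genes that fell, against 52.8% of all genes called lower. In Cd9, Thbs1, F5, Serpine2 and Nbeal2 the 3 libraries ran in the order of the late neutrophil share, replicate 2 above 1 above 3, which held for 38.8% of all genes called lower. The opposite order stood in 2 of the 12 genes that fell, against 8.12% of all genes called lower, and in 6 of the 14 that rose, against 26.4% of all genes called higher. Pf4, Vwf and Gp9 did not run in the order of the late neutrophil share. Pf4 and Vwf were lowest in replicate 2, and Pf4 ran in the opposite order. The part of neutrophil RNA in these results was not tested.

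Marker genes of other cells moved with the MYH11 genotype too. Against WT, 32.0% of all tested genes were higher in MYH11 and 27.8% lower. Mast cell and basophil genes took 0.221% to 0.336% of reads in MYH11, 0.0529% to 0.0630% in mDE and 0.0572% to 0.0596% in WT, and 8 of 11 tested rose and 3 fell against WT (median log2 fold change 4.87). Ms4a2, the β chain of the IgE receptor, averaged 27613 ± 4913 in MYH11 and 938 ± 86.3 in WT (SD, n = 3 each). Endothelial genes, which matter here because endothelium also makes Vwf and Selp, took 0.0098% to 0.0125% of reads in MYH11, 0.0041% to 0.0048% in mDE and 0.0033% to 0.0042% in WT. Of 10 tested, 4 rose and 1 fell (median 0.60). Tek, which blood stem cells express as well, rose 23.4-fold, and the other genes of this list that rose are not named here. Cdh5, the endothelial cadherin gene, and Cldn5 were picked after their values were seen. Cdh5 averaged 39.8 in MYH11, 15.98 in mDE and 32.8 in WT and did not pass against WT (limma adjusted p = 0.556). Cldn5, an endothelial junction gene too low to test, averaged 2.90 in MYH11, 1.09 in mDE and 1.68 in WT. Erythroid genes took 0.260% to 0.387% of reads in MYH11, 0.0611% to 0.120% in mDE and 0.0814% to 0.103% in WT, with 5 of 12 higher and 3 lower (median 0.25). Of the 12 monocyte genes, 2 were also called higher in mDE against WT, where 0.821% of all tested genes were. They are F13a1, the factor XIII A chain that platelets carry too, at 12567 ± 235 in mDE and 8678 ± 1097 in WT, and Klf4, a monocyte transcription factor, at 759.8 ± 100.8 in mDE and 498 ± 11.5 in WT (SD, n = 3 each, limma adjusted p = 0.0304 and 0.0469). The part of these cells in the platelet gene results was not tested.

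The wider megakaryocyte programme moved in both directions, as did all tested genes. Of 19 megakaryocyte transcription factor genes, 10 rose and 7 fell in MYH11 against WT, where 32.0% of all tested genes rose and 27.8% fell. Their median log2 fold change was 0.24 beside 0.02 over all tested genes. Gata1, the factor that megakaryocytes share with red cells, averaged 6252 ± 1202 in MYH11, 3091 ± 678 in mDE and 3369 ± 305 in WT (SD, n = 3 each) and rose 1.86-fold against WT (limma adjusted p = 0.00187). Its cofactor Zfpm1, known as FOG1, went the other way, at 908 ± 130.5 in MYH11 and 3361 ± 469.8 in WT, 3.70-fold lower (limma adjusted p = 1.44e-05). Gata2, which precedes Gata1 in blood development, rose 15.0-fold, Runx1 2.24-fold and Mafk, a partner of NF-E2, 1.96-fold (limma adjusted p = 2.45e-07, 5.2e-06 and 9.2e-06). Fli1, the ETS factor of late megakaryocyte genes, fell 1.61-fold, at 3231 ± 129 in MYH11 and 5212 ± 272 in WT (limma adjusted p = 3.4e-05). The part of other cells in these changes, mast cells and basophils among them, was not tested.

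Of 21 other platelet surface genes tested, 9 rose and 3 fell in MYH11 against WT (median log2 fold change 0.24). Over all tested genes 32.0% rose and 27.8% fell. Ptger3, a prostaglandin E receptor, rose 10.6-fold, P2ry1, the other ADP receptor, 2.44-fold and Itgb1, the β chain of the collagen receptor, 2.06-fold (limma adjusted p = 1.38e-06, 2.32e-06 and 2.86e-06). Cd63, a dense granule and lysosome tetraspanin, fell 9.48-fold (limma adjusted p = 4.2e-07), close in size to the fall of the tetraspanin gene Cd9. Itga6, the laminin receptor chain, was the only gene of these 5 pathway lists called in mDE against WT. It averaged 4871 ± 170 in MYH11, 1144 ± 468 in mDE and 2600.1 ± 46.8 in WT (SD, n = 3 each). It rose 1.87-fold in MYH11 (limma adjusted p = 0.00618) and fell in mDE, with a log2 fold change of -1.26 ± 0.22 SE (limma adjusted p = 0.0359).

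Of 33 platelet signalling genes 11 rose and 14 fell in MYH11 against WT (median log2 fold change -0.09). The shares over all tested genes were 32.0% higher and 27.8% lower. Prkcq and Prkca, protein kinases C, rose 19.6-fold and 5.54-fold, the Src kinase gene Fyn 5.23-fold and Lat, the adaptor below glycoprotein VI and CLEC-2, 8.42-fold (limma adjusted p from 1.09e-07 to 3.37e-06). These 4 also serve other blood cells, such as T cells and mast cells. Of 19 genes for granule formation and secretion 6 rose and 6 fell (median 0.04), beside the same shares of all tested genes. Slc18a2, which loads amines into dense granules and into mast cell granules, rose 10.96-fold (limma adjusted p = 4.36e-07), and Hps5, of dense granule biogenesis, 1.79-fold. Rab27a fell 2.27-fold (limma adjusted p = 7.09e-05), opposite to its paralog Rab27b, and Stx11, a syntaxin of platelet secretion, fell 2.94-fold.

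Of 15 cytoskeletal genes of proplatelet formation 3 rose and 12 fell in MYH11 against WT (median log2 fold change -0.49). Among all tested genes 32.0% rose and 27.8% fell. Tuba4a and Tuba8, α tubulins of megakaryocytes and platelets, fell 2.41-fold and 4.37-fold, opposite to the β1 tubulin gene Tubb1 (limma adjusted p = 2.37e-06 and 7.05e-06). Actn1, α-actinin 1, fell 6.14-fold, at 2867 ± 1391 in MYH11 and 17612 ± 2631 in WT (SD, n = 3 each, limma adjusted p = 4.55e-05), and Wdr1, an actin-disassembly factor, fell 1.65-fold.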

How the data were processed

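RNA of 9 libraries was sequenced. CASAVA 1.8.2, STAR 2.4, RSEM, DESeq2 and GRCm38 are named in the submitters' processing notes without their roles. The deposited values are normalised signal: counts the authors divided by 1 size factor per library. Every value (100.0%) was a whole multiple of its library's smallest nonzero value within 1e-06, so whole reads were recovered for filtering and count tests. log2 values were computed here from the deposited values with a pseudocount of 1. limma 3.58.1 (R 4.3.3) was fitted to all 9 libraries with genotype as the term, on the 15948 genes that passed edgeR 4.0.16's filterByExpr, with Benjamini-Hochberg adjustment over all of them and a threshold of 0.05, after tests on simulated data. Recovered reads were tested with edgeR, limma-voom and DESeq2 1.42.0. Gene models are GENCODE M21 on GRCm38, and 42462 of 43629 identifiers had a symbol. All 34 genes are described. Values of every library are given for the 10 largest called changes in each direction, and for Pf4, Itga2b, Gp1ba and Vwf. From other lists at most 4 genes with the smallest adjusted p are named, plus any called in mDE, and Gata1 and Fli1; a further gene of this rule is not reported here. The library values of Itgb3, and the genes Cdh5 and Cldn5, were chosen after their values were seen. Members and lists were chosen with earlier results of these data known.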

Additional observations from a re-analysis of the deposited data

How the results depend on the processing

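The counts of members called kept within 1.5 times under every alternative run in both comparisons of MYH11. Against WT 13 to 14 members were higher and 9 to 13 lower, and against mDE 11 to 13 higher and 9 to 13 lower. The lowest counts came with a filter of 5 CPM, under which fewer members are tested. In mDE against WT the count of members higher was 0, and it was 4 with DESeq2 and 0 to 1 when each library was left out in turn. Without mDE replicate 3 the 1 call was Tubb1. No result reversed. Of the members called, 24 of 26 against WT and 23 of 24 against mDE were called under every alternative that tested them. The exceptions were F2rl2, P2rx1 and Plek. Gp9, Gp1bb, Clec1b and Gng11 were tested in 17 of the 18 alternatives. Itgb3 passed against WT in 10 of 18 alternatives. Fermt3 passed without MYH11 replicate 2 (limma adjusted p = 0.0243).

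Replicate numbers are shared by the groups. Same-numbered libraries deviated from their group means with correlations of -0.147 to 0.125 over 9 pairs, 2 of them over 0.1, so the numbers were not taken to pair them. With the replicate block the counts were 13 higher and 12 lower in MYH11 against WT, 0 and 0 in mDE against WT, and 12 and 12 in MYH11 against mDE. Over all genes, mDE against WT gave 198 calls, against 944 with DESeq2, 123 with the filter of 5 CPM, 73 higher and 28 lower with the block, 61 from those 2 groups alone and 31 to 189 with each library left out, the lowest without WT replicate 2. The 3 libraries a group and few reads limit what Gp6, Alox12, Gp1bb and Tbxa2r can show.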
